A study of Mus musculus with 3 samples.

Results

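The cytosolic ribosome of skeletal muscle was examined through the genes that encode its proteins. A row of the expression table was taken as a member where its annotated symbol is Rpl or Rps followed by a number, or is Rplp0, Rplp1, Rplp2 or Rpsa, and pseudogene symbols ending in -ps, the Rps6 kinases and the binding proteins named after a ribosomal protein were left out. Of the 25206 rows, 62 met this rule, 23 for the small subunit and 39 for the large subunit. RefSeq lists 88 protein-coding symbols that fit the same rule, so that familiar members such as Rpl13a, Rps18, Rpl32, Rpl11, Rps6 and Rplp2 were not analysed here. All 62 rows matched a RefSeq gene by Entrez ID, and 2 of them (Rpl6l and Rps4l) are pseudogenes in RefSeq. Symbols and IDs of the rows therefore fit the rule, which goes by symbol and takes in these 2 pseudogenes. Whether each of the other rows encodes a protein of the ribosome was not checked. A further 4 rows have no annotated symbol but an ID that belongs to a ribosomal protein gene in RefSeq, and they were left out of the 62. With them the counts past 2-fold given below were the same.

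RNA came from the tibialis anterior of male CD2F1 mice (strain given as CD2 in the labels) and was measured on 3 Mouse Gene 2.0 ST arrays, with 1 array per group and RNA of 3 mice pooled on each. All 3 groups had received an AAV9 vector encoding an shRNA into that muscle at 10 weeks of age, at 1e+11 vector genomes in 20 µL. The Sham scrambled-shRNA group was given PBS 2 weeks later, the C26 scrambled-shRNA group (C26-scr) received 500000 cells per flank of colon 26 adenocarcinoma, a cachexia-inducing mouse tumour, and the C26 FoxP1-shRNA group (C26-FoxP1sh) received the same cells after a vector against FoxP1. Muscles were taken 26 days after the tumour cells. The scrambled vectors carried GFP and the FoxP1-shRNA vector carried mCherry, so that the shRNA and the marker cannot be told apart, and no array of Sham muscle with FoxP1-shRNA was analysed here. Foxp1, the forkhead transcription factor targeted by the shRNA, read 6.41 (log2) in Sham, 7.31 in C26-scr and 6.52 in C26-FoxP1sh.

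Values are log2 expression values from Robust Multiarray Average (RMA), a method that corrects the background of an array, aligns the distributions of the arrays and gives 1 value per gene. A difference of 1.00 on this scale is 2-fold. A gene is said to read a log2 value on an array, and where 3 values stand together they are those of Sham, C26-scr and C26-FoxP1sh, in that order. With 1 array per group there was no replicate, no SD between mice and no test, overlap of groups could not be judged, and every difference below compares these 3 arrays. Fixed sizes of 2-fold and 1.5-fold were used to count genes, and counts are read against the share of all 25206 rows past the same size. In C26-scr against Sham, bright rows passed 2-fold more often than all rows. Of the 1496 rows with a mean log2 value of at least 8, 9.89% were higher and 8.89% lower, against 3.34% and 4.33% of all rows. The share of all rows is therefore not a like background for a list of brighter genes. The 3 comparisons share arrays, so that their values are given side by side and are not independent.

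Ribosomal proteins are made in equal numbers with the ribosomal RNA, which RNA polymerase I transcribes, and are imported into the nucleolus, where the subunits are assembled. Most of their mRNAs begin with a C and a run of pyrimidines, the terminal oligopyrimidine (TOP) tract, through which mTOR complex 1 and the RNA-binding protein Larp1 set how much of the mRNA is translated and how stable it is. An expression array reads the amount of mRNA and not its translation. In skeletal muscle the number of ribosomes helps to set the capacity for protein synthesis, and ribosome content is lower in several forms of wasting.

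The starts of the members that passed 2-fold in a comparison are printed to show what a TOP tract looks like and which of these genes have one. Each run holds 60 bases before the annotated start and the first 20 bases from it, so that the start is base 61 of 80, and the sequences are those of RefSeq on GRCm38.p6. Capitals mark a pyrimidine tract at the start or a CCGGAA or TTCCGG hexamer, the core that ETS factors such as Gabpa bind. Rps27 (chr3:90213629-90213708, minus strand) and Rpl14 (chr9:120571457-120571536, plus strand) have a tract across the start, and in Rps27 a TTCCGG hexamer overlaps it. Rpl6 (chr5:121204441-121204520, plus strand) has a CCGGAA hexamer within the first 20 bases, whereas Rpl36a (chrX:134585594-134585673, plus strand) and the first of the 2 listed starts of Rpl3l (chr17:24727766-24727845, plus strand) have neither within the run. Rps20 is the only other member past 2-fold.
Rps27: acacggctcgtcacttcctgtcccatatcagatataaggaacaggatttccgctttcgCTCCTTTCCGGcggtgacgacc
Rpl14: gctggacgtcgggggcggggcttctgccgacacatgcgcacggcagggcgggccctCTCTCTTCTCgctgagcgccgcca
Rpl6: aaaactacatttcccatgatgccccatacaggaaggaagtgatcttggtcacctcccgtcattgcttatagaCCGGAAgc
Rpl36a: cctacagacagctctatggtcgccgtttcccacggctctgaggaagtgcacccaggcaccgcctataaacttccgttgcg
Rpl3l: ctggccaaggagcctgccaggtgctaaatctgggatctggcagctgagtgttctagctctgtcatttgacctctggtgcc

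A promoter of 300 bases (250 before and 50 after the annotated start) was found for 48 of the 62 members and for 27025 genes in all. A tract, taken as a C within 5 bases of the start followed by at least 4 more C or T, was present in 18 of the 48 members (37.5%), against 21.2% of all promoters and 25.4% of the promoters of mitochondrial ribosomal proteins. A gene with several listed starts was counted, here and for the motifs below, where any of them had the feature. With the first listed start only, as in the printed runs, the tract was present in 35.4% of members and 18.5% of all promoters. Starts of the mRNAs themselves were not measured here, so that these shares hold for annotated starts only. All other motifs were searched on both strands. CCGGAA or its reverse complement TTCCGG was present in 25 members (52.1%), against 16.7% of all promoters (45.8% against 15.2% with the first start only). GGGCGG, the core of an Sp1 site, was present in 30 members (62.5%) against 38.2%, and AAGATGG, the core bound by Yy1, in 8 members (16.7%) against 7.28%. TGTTTAC, a forkhead core to which proteins such as FoxP1 and FoxO1 bind, was present in 1 member (2.08%), against 4.05% of all promoters. The tract and the TTCCGG hexamer can overlap, as in Rps27. Members with a tract had a median log2 difference of 0.0084 in C26-scr against Sham, and the 30 without one had 0.05.

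Members were spread over nearly the whole range of the arrays. The members' log2 values had medians of 4.10 in Sham, 4.25 in C26-scr and 4.19 in C26-FoxP1sh, beside medians of 4.06, 4.05 and 3.99 over all rows. Ribosomal protein mRNAs are among the most abundant mRNAs of a cell, whereas 30 of the 62 rows in Sham, 29 in C26-scr and 28 in C26-FoxP1sh were below the median row of their array. On all 3 arrays, 25 members were below that median and 29 were above it. Rpl4, a core protein of the large subunit, had the highest member value on each array, from 10.53 to 10.86. The lowest member value was 1.68 for Rps29 in Sham, 1.55 for Rpl32l in C26-scr and 1.54 for Rpl32l in C26-FoxP1sh. Many ribosomal protein genes have processed pseudogenes nearly identical to them (321 symbols of this kind end in -ps in RefSeq), and which probes were kept for each row was not analysed here, so that a low level is not read as low expression, and the order of genes by level below is that of their array values and not of their mRNA amounts.

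**Figure D1:**
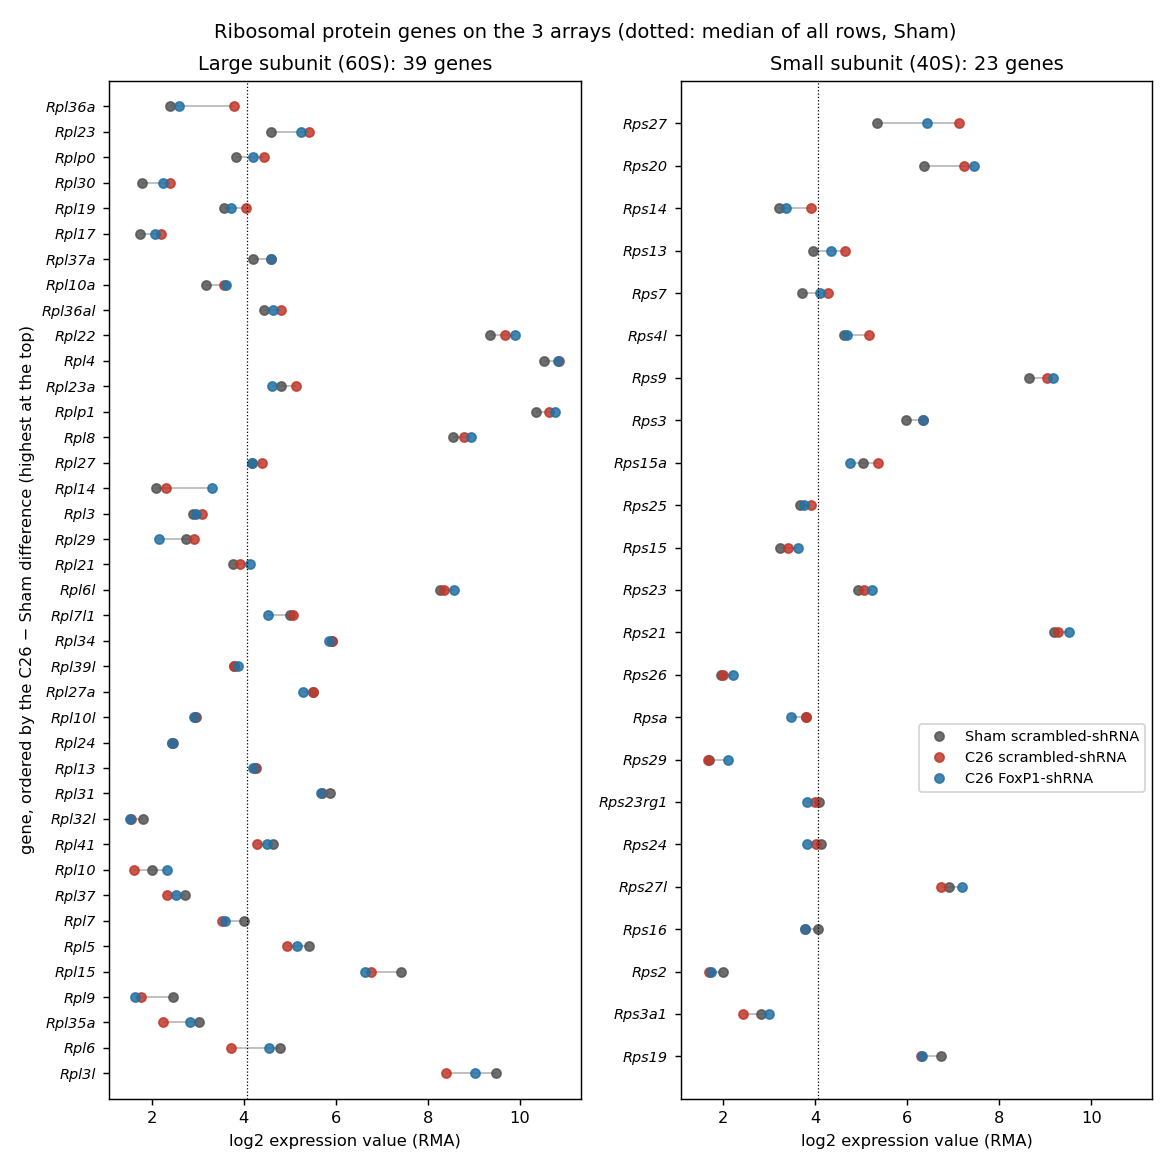
Log2 expression value (RMA) of each of the 62 ribosomal protein genes on the 3 arrays, with 1 point per array, in the large subunit (39 genes, left) and the small subunit (23 genes, right), ordered by the difference between C26-scr and Sham. Most genes have their 3 points close together, and Rps27 and Rpl36a at the top and Rpl6 and Rpl3l at the bottom are the 4 members past 2-fold in that comparison.

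As a group, the ribosomal protein rows differed between the 3 arrays about as much as all rows did. On each array 28 to 30 of the 62 were below the median row, where a difference in mRNA may not be seen. The difference between the highest and the lowest array was under 1.5-fold for 45 of the 62 members (72.6%), against 73.6% of all rows, and its median was 0.43 on the log2 scale for members and 0.37 for all rows. In C26-scr against Sham, 2 members were higher by at least 2-fold (all rows 3.34%) and 2 were lower (all rows 4.33%). These counts are near the background. They were 10 higher and 0 lower when the arrays were centred on reference genes. That scaling moved the median of all rows by 0.51 on the log2 scale, with 3264 of the 25206 rows higher by 2-fold and 443 lower. At 1.5-fold, 8 members were higher (12.9%, against 10.1% of all rows) and 5 were lower (8.06%, against 10.5%). Of the 62 members, 38 had a log2 difference above 0 and 24 below it, with a median of 0.12, beside 0.03 over all rows.

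FoxP1-shRNA against scrambled-shRNA within C26 mice gave smaller differences, with an SD over the members of 0.38 on the log2 scale, beside 0.51 in C26-scr against Sham (0.40 and 0.61 over all rows). Past 2-fold, 1 member was higher (all rows 1.44%) and 1 was lower (all rows 1.06%), and past 1.5-fold 4 were higher (6.45%, against 5.43%) and 4 were lower (6.45%, against 4.96%). The median difference of the members was -0.01, beside -0.03 over all rows, and its sign turned with several settings, so that it has no direction. In C26-FoxP1sh against Sham, 3 members were higher by 2-fold (4.84%, against 1.61% of all rows) and 0 were lower (all rows 2.17%), and at 1.5-fold 4 were higher (6.45%, against 5.76%) and 2 were lower (3.23%, against 6.4%). The median there was 0.13, beside -0.0041 over all rows.

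Both subunits had small medians. In C26-scr against Sham, the 23 small-subunit members had a median log2 difference of 0.15 and the 39 large-subunit members 0.10. With FoxP1-shRNA against C26-scr the medians were 0.0042 and -0.02. Against Sham, the FoxP1-shRNA muscle had a median of 0.26 for the small subunit, with 16 of 23 members above 0, and -0.0021 for the large subunit, with 19 of 39 above 0. The latter median was above 0 under each of the 5 other scalings. Whether the subunits differ could not be tested.

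Among small-subunit proteins, Rps27 stood farthest from the others in the tumour comparison. Rps27, a zinc-binding protein of the solvent side of the small subunit, read 5.34 in Sham, 7.13 in C26-scr and 6.43 in C26-FoxP1sh. It was 3.45-fold higher in C26-scr than in Sham and 1.62-fold lower in C26-FoxP1sh than in C26-scr, and lay 2.13-fold above Sham there. Rps20, a protein of the head of the small subunit, read 6.36, 7.22 and 7.45 on the same arrays. It was 1.82-fold higher in C26-scr and 2.12-fold higher in C26-FoxP1sh than in Sham, so that both tumour arrays were above the Sham array for each of these genes.

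Other small-subunit members were less far apart. Rps13, which sits near the junction of the subunits, read 3.95 in Sham, 4.65 in C26-scr and 4.34 in C26-FoxP1sh. Rps14, a platform protein whose loss causes anaemia in a human form of myelodysplasia, read 3.20, 3.90 and 3.37. Both were 1.62-fold higher in C26-scr than in Sham, and Rps14 lay below the median row on all 3 arrays. Rps15a, a protein of the body of the small subunit, read 5.04, 5.37 and 4.76 and was 1.53-fold lower in C26-FoxP1sh than in C26-scr. Rps3a1 had its lowest value in C26-scr, with 2.82, 2.43 and 2.99, all below the median row, and was 1.30-fold lower there than in Sham. Rps9, which lines the entry of the mRNA channel and is among the brighter rows, read 8.64, 9.04 and 9.17 and was 1.32-fold higher in C26-scr than in Sham.

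Among large-subunit proteins, both directions were seen. Rpl36a, which lies near the exit site for the spent tRNA, read 2.40 in Sham, 3.79 in C26-scr and 2.59 in C26-FoxP1sh. It was 2.62-fold higher in C26-scr than in Sham and 2.30-fold lower in C26-FoxP1sh than in C26-scr, so that only the C26-scr array stood apart, with all 3 values below the median row. Rpl23, which can also bind Mdm2, read 4.60, 5.43 and 5.24 and was 1.78-fold higher in C26-scr than in Sham. Rplp0, the base of the stalk that recruits elongation factors, read 3.82, 4.44 and 4.20 and was 1.53-fold higher. It is often used as a reference gene in RT-qPCR. Rplp1, a stalk protein carried by Rplp0, read 10.35, 10.65 and 10.78 and was 1.23-fold higher.

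The members lower in C26-scr did not share one order with FoxP1-shRNA. Rpl6, which in human cells is also recruited to DNA damage, read 4.79 in Sham, 3.73 in C26-scr and 4.55 in C26-FoxP1sh, and was 2.09-fold lower in C26-scr than in Sham, with C26-FoxP1sh 1.77-fold above C26-scr. Rpl35a, mutated in some people with Diamond-Blackfan anaemia, had the same order, with 3.03, 2.26 and 2.83, and was 1.72-fold lower in C26-scr. For Rpl15 and Rpl9, the FoxP1-shRNA array stayed with the other tumour array. Rpl15 read 7.43, 6.76 and 6.63 and was 1.59-fold lower in C26-scr and 1.74-fold lower in C26-FoxP1sh than in Sham. Rpl9 read 2.45, 1.76 and 1.63, with 1.62-fold and 1.77-fold lower values. Both tumour arrays were below Sham for these 2 genes. All values of Rpl9 were below the lower quartile of all rows (2.66 to 2.74), and those of Rpl35a were below the median row.

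Rpl5, which carries the 5S ribosomal RNA to the large subunit and binds Mdm2 when free, read 5.42, 4.93 and 5.16 and was 1.41-fold lower in C26-scr than in Sham. Rpl7 read 4.01, 3.52 and 3.59, below the median row on each array, and was 1.40-fold lower. Neither reached 1.5-fold. With FoxP1-shRNA against C26-scr, Rpl14 was the member with the largest positive difference, at 2.02-fold, and read 2.10 in Sham, 2.30 in C26-scr and 3.32 in C26-FoxP1sh. Rpl10, which joins the large subunit at the last step of its maturation, read 2.01, 1.63 and 2.34 and was 1.64-fold higher in C26-FoxP1sh than in C26-scr. Rpl29, which mice can live without at the cost of growth, read 2.74, 2.93 and 2.15 and was 1.71-fold lower there. All values of Rpl14, Rpl10 and Rpl29 were in the lower part of the arrays, below the median row.

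Rpl3l had the lowest log2 difference of all members in C26-scr against Sham. It is the paralog of Rpl3 that is made in striated muscle, where it can take the place of Rpl3 beside the catalytic centre of the large subunit. Its log2 value was 9.48 in Sham, 8.40 in C26-scr and 9.03 in C26-FoxP1sh. The C26-scr array was 2.11-fold below Sham, and the C26-FoxP1sh array was 1.55-fold above the former and 1.36-fold below Sham. Rpl3 itself read 2.89, 3.09 and 2.96, below the median row on each array and near the lower quartile of all rows (2.66 to 2.74), where a difference in the parent gene may not be seen. The difference of Rpl3l less that of Rpl3 was -1.28 in C26-scr against Sham and 0.77 with FoxP1-shRNA against C26-scr. A set of 12 genes of muscle fibre identity, such as the skeletal actin Acta1, had medians of -0.35 and 0.09 in the same comparisons (0.15 in the first when centred on reference genes, -0.03 in the second with cyclic loess), and its part in the level of Rpl3l was not tested. In these bulk samples, fewer cells of a type and less RNA per cell cannot be told apart.

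The other paralogs did not follow one order. Rps27l, a paralog of Rps27 that p53 induces, read 6.91 in Sham, 6.72 in C26-scr and 7.18 in C26-FoxP1sh, and its difference less that of Rps27 was -1.98 in C26-scr against Sham. Rpl36al, an intronless copy of Rpl36a, read 4.45, 4.81 and 4.63, and its difference less that of Rpl36a was -1.03. In both pairs the parent gene held most of the difference. Rpl7l1, a relative of Rpl7, read 5.00, 5.08 and 4.53 and was 1.47-fold lower in C26-FoxP1sh than in C26-scr. Rps4l read 4.63, 5.17 and 4.69. Rpl10l and Rpl39l, which are known from the testis, were nearly level over the 3 arrays, at 2.96, 2.95 and 2.93 for Rpl10l and at 3.79, 3.79 and 3.89 for Rpl39l. Both were below the median row on each array, where a difference in mRNA may not be seen. Over all 7 measured paralogs the median difference was 0.0018, -0.02 and 0.05 in the 3 comparisons.

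Apart from Rpl3l, the brightest members had the same direction in C26-scr against Sham. A mean log2 value of at least 8 was reached by 8 members: Rpl4, Rplp1, Rpl22, Rps21, Rpl3l, Rps9, Rpl8 and Rpl6l. Of these, 7 were higher in C26-scr than in Sham and 7 were higher in C26-FoxP1sh than in Sham, with Rpl3l as the exception in both. Rpl22, which binds RNA stem-loops and is dispensable for bulk translation in mice, read 9.35, 9.69 and 9.90. Rpl4 read 10.53, 10.86 and 10.83, Rps21 read 9.19, 9.27 and 9.52, and Rpl8 read 8.56, 8.78 and 8.94. Rpl6l, a pseudogene in RefSeq, read 8.26, 8.36 and 8.57. For each of the 7 genes other than Rpl3l the Sham array had the lowest value, under the deposited values and under all 5 other scalings.

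Without Rpl3l, the 7 bright members had a median difference of 0.30 in C26-scr against Sham, 0.16 with FoxP1-shRNA against C26-scr and 0.38 in C26-FoxP1sh against Sham. The 1496 rows that are as bright had medians of -0.02, 0.08 and 0.07, and 730 of them were above 0 in the first of these comparisons. The 54 dimmer members had medians of 0.06, -0.03 and 0.06. No bright member other than Rpl3l reached 1.5-fold in any of the 3 comparisons. Of the 1496 bright rows, 21.9% were higher and 20.9% lower by that size in C26-scr against Sham. The shares were 11.1% and 6.82% with FoxP1-shRNA against C26-scr, and 14.3% and 7.49% in C26-FoxP1sh against Sham. The minimum of 8, the leaving out of Rpl3l, and the naming of Rpl4, Rps21, Rpl8 and Rpl6l, were chosen after their values were seen.

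**Figure D2:**
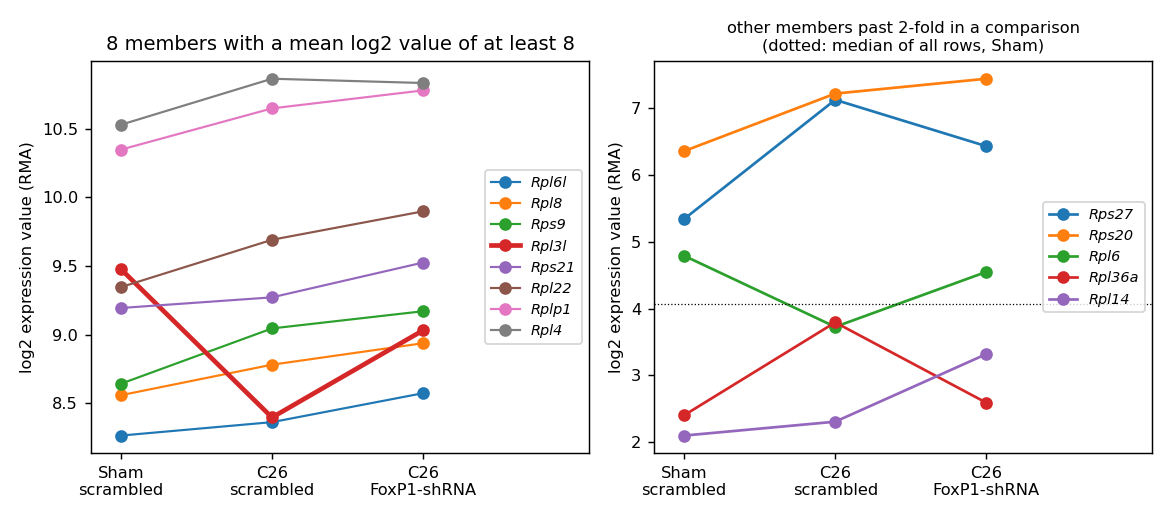
Log2 expression value (RMA) on the 3 arrays of the 8 members with a mean of at least 8 (left) and of the other 5 members past 2-fold in a comparison (right), 1 point per array, with lines joining the points of a gene and the dotted line at the median of all rows in Sham. Rpl3l (thick line) goes from 9.48 in Sham to 8.40 in C26-scr while the other 7 bright genes are higher in C26-scr than in Sham.

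Ribosomal proteins of mitochondria, which are encoded in the nucleus but build the separate ribosome of that organelle, had another order. Their 76 rows had a median log2 difference of -0.33 in C26-scr against Sham, with 55 of 76 below 0, but 0.17 when the arrays were centred on reference genes, where the median of all rows was 0.54. With FoxP1-shRNA against C26-scr their median was 0.37, with 59 of 76 above 0. The cytosolic members had medians of 0.12 and -0.01 in the same comparisons. The 2 sets differ in level, with a median log2 value in Sham of 6.75 for mitochondrial and 4.10 for cytosolic rows. At a mean of at least 8, medians were -0.39 and 0.55 for 7 mitochondrial rows and 0.26 and 0.18 for 8 cytosolic members. Past 2-fold in C26-scr against Sham, 1 mitochondrial row was higher (1.32%, against 3.34% of all rows) and 6 were lower (7.89%, against 4.33%). Of all rows with a mean of at least 8, 9.89% were higher and 8.89% lower by that size. The difference between the 2 kinds of ribosome could not be tested with 1 array per group.

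RNAs known for a TOP tract that do not encode ribosomal proteins were set beside the members. Small nucleolar RNAs (snoRNAs), which guide the modification of ribosomal RNA, are cut from the introns of host genes. Listed were 9 host genes whose spliced RNA is known to start with a TOP tract, and the tract was not searched in them here. These spliced RNAs hold no long reading frame and are known targets of nonsense-mediated decay, which acts during translation. All 9 were measured, and all 9 had a higher log2 value in C26-scr than in Sham, 7 of them by at least 2-fold (77.8%, against 3.34% of all rows), with a median difference of 1.43. With FoxP1-shRNA against C26-scr, 8 of 9 were lower, 6 of them by at least 2-fold (66.7%, against 1.06% of all rows), with a median of -1.21. The ribosomal proteins had medians of 0.12 and -0.01 on these arrays. The host list was chosen with earlier results of these data known, so that its shares describe these 9 genes and are not independent support.

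Snhg12 read 3.88 in Sham, 7.27 in C26-scr and 5.18 in C26-FoxP1sh, which is 10.5-fold higher and then 4.26-fold lower. Snhg1 read 5.32, 7.83 and 6.22, and Snhg6 read 6.04, 8.34 and 6.90, at 5.68-fold and 4.92-fold higher in C26-scr than in Sham. Epb41l4aos read 4.89, 6.91 and 5.78 and was 4.06-fold higher. In each of these 4 the C26-scr array was highest and the C26-FoxP1sh array lay between it and Sham. Zfas1 (5.23, 6.66 and 5.33), Gas5 (5.50, 6.76 and 5.84) and Snhg5 (5.42, 6.67 and 5.46) had the same order, with 2.70-fold, 2.40-fold and 2.38-fold higher values in C26-scr than in Sham. Snhg8 was 1.99-fold higher, with 4.16, 5.15 and 4.62, and Snhg3 was nearly level, with 5.34, 5.58 and 5.59.

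The measured snoRNAs of these hosts did not share the size of the difference. The table held 10 snoRNA rows placed inside the hosts, and none passed 2-fold in a comparison. No such row lay inside Epb41l4aos, Snhg5 or Snhg8, so that these hosts are not covered. Their median difference was 0.12 in C26-scr against Sham and 0.18 with FoxP1-shRNA against C26-scr. For Snhg12, which was 10.5-fold higher, Snora16a read 7.71 in Sham and 8.09 in C26-scr, and Snord99 read 11.04 and 10.92. A further 19 snoRNA rows lie inside ribosomal protein genes, and their medians were 0.10 and 0.08, with 0 past 2-fold.

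**Figure D3:**
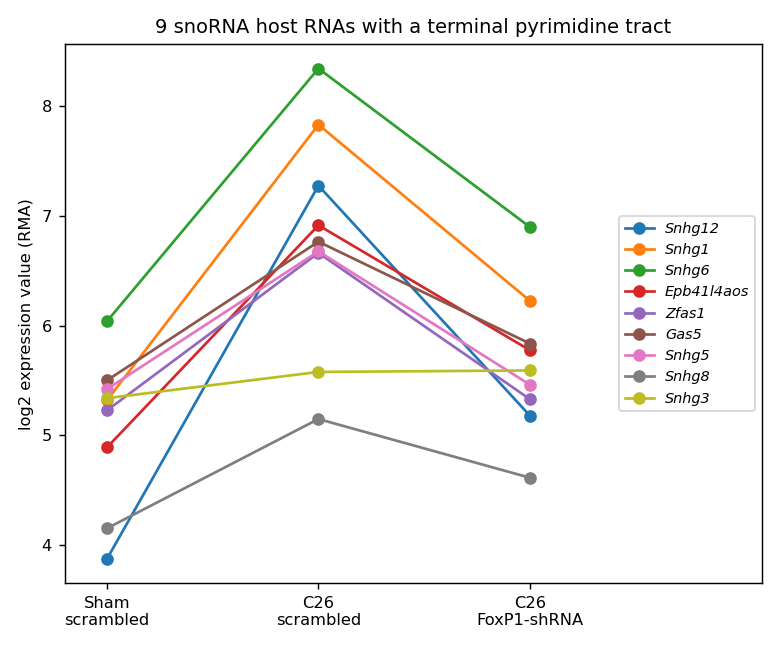
Log2 expression value (RMA) of the 9 snoRNA host RNAs listed as having a TOP tract on the 3 arrays, 1 point per array, with lines joining the points of a gene. The C26-scr array is the highest for 8 of the 9, from Snhg12 at 3.88, 7.27 and 5.18 to Snhg8 at 4.16, 5.15 and 4.62, and Snhg3 is nearly level.

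Translation factors and other proteins listed as having TOP mRNAs lay between these groups, and the tract was not searched in them here. Of 22 listed, 20 were measured, and 17 of the 20 were higher in C26-scr than in Sham, with a median of 0.37, 0 higher by 2-fold (all rows 3.34%) and 1 lower (5.0%, against 4.33%). With FoxP1-shRNA against C26-scr the median was -0.17. Nap1l1, a histone chaperone, read 7.35, 8.29 and 7.95 and was 1.93-fold higher in C26-scr than in Sham. Eif4b, which aids the helicase that unwinds the start of the mRNA, read 9.11, 9.77 and 9.23 and was 1.58-fold higher. The 1 gene lower by 2-fold in C26-scr than in Sham was Vim, an intermediate filament of mesenchymal cells that read 9.95, 8.81 and 9.32. A set of 10 measured fibroblast markers had a median of -1.20 in that comparison, and its part in the level of Vim was not tested. Eef1a1 read 2.94, 2.29 and 2.76 and was 1.57-fold lower in C26-scr than in Sham, and Tpt1 read 1.65, 1.27 and 1.52. These other 2 lower genes were below the median row on each array, where a difference in mRNA may not be seen. Fau, which encodes a ubiquitin-like protein fused to a small-subunit protein, read 5.00, 5.26 and 5.39.

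Some genes that control the translation of TOP mRNAs had larger differences than any member. Of 21 listed, 19 were measured, with 3 higher by 2-fold in C26-scr against Sham (15.8%, against 3.34% of all rows), 1 lower (5.26%, against 4.33%) and a median of -0.17 (0.33 when centred on reference genes). The list had a median log2 value of 7.12 in Sham, beside 4.06 over all rows. Of rows with a mean of at least 8, 9.89% were higher and 8.89% lower by 2-fold. Ddit4, an inhibitor of mTOR complex 1, read 5.73 in Sham, 9.27 in C26-scr and 8.43 in C26-FoxP1sh and was 11.6-fold higher in C26-scr than in Sham. Eif4ebp1, which blocks the cap-binding protein Eif4e until mTOR phosphorylates it, read 7.14, 9.90 and 9.58 and was 6.74-fold higher. Mtor, the kinase itself, read 7.12, 8.71 and 8.01 and was 3.01-fold higher. For these 3 genes both tumour arrays were above Sham, and the FoxP1-shRNA array was below the other tumour array.

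Eef2k, the kinase that slows elongation by phosphorylating Eef2, went the other way, with 7.08, 5.98 and 7.43, which is 2.14-fold lower in C26-scr than in Sham, with C26-FoxP1sh 2.73-fold above C26-scr. Deptor, a further inhibitor of mTOR, read 8.37, 7.55 and 8.65 and was 2.15-fold higher in C26-FoxP1sh than in C26-scr. Larp1 read 8.30, 8.74 and 8.38. These are mRNA levels, and the activity of mTOR was not measured on the arrays.

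Lists for the making of ribosomes had medians above that of all rows in C26-scr against Sham, where 53.3% of all rows were above 0 and 3.34% were higher by 2-fold. For RNA polymerase I and its factors, 14 of 15 were above 0, with a median of 0.34 and 2 higher by 2-fold (13.3%). This polymerase list had a median log2 value of 5.56 in Sham, beside 4.06 over all rows. Taf1d, a subunit of the selectivity factor of that polymerase, read 4.83, 6.65 and 5.53 and was 3.54-fold higher in C26-scr than in Sham and 2.17-fold lower in C26-FoxP1sh than in C26-scr. Polr1b, a catalytic subunit, read 5.34, 6.43 and 5.97 and was 2.12-fold higher. Among 14 chaperones and import receptors of ribosomal proteins, 12 were above 0, with a median of 0.32, and Ipo4, an importin, was 2.19-fold higher, with 7.10, 8.23 and 8.13. Bccip, which in yeast has a relative that guards Rpl23, was 1.74-fold lower, with 7.46, 6.66 and 7.18.

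Transcription factors of ribosomal protein genes (11 measured) had a median of 0.32, with Myc as the 1 gene past 2-fold (9.09%, against 3.34% of all rows). Myc, which drives ribosome production in growing cells, read 5.84 in Sham, 7.16 in C26-scr and 6.98 in C26-FoxP1sh and was 2.50-fold higher in C26-scr. For the rescue, splitting and recycling of ribosomes, 14 of 14 were above 0, with a median of 0.37. Nufip1, a snoRNP assembly factor that also acts as a receptor for the autophagy of ribosomes, read 5.17, 6.51 and 5.91 and was 2.52-fold higher. Zfp598, the ubiquitin ligase that senses collided ribosomes, read 5.81, 6.85 and 6.70 and was 2.06-fold higher. Abce1, which splits ribosomes after termination, read 9.06, 9.89 and 9.37 and was 1.77-fold higher. Nufip1, Zfp598 and Abce1 were highest in C26-scr. With FoxP1-shRNA against C26-scr, the rescue and recycling list had a median of -0.17 and the transcription factors -0.37.

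Free ribosomal proteins such as Rpl5 and Rpl23 can bind Mdm2 and so stabilise p53, and the genes of that checkpoint did not share one direction. Mdm2 was level, at 7.12, 7.13 and 7.11. Of 10 measured genes, 8 were above 0 in C26-scr against Sham, with a median of 0.23. By size, 2 were higher by 2-fold (20.0%, against 3.34% of all rows) and 1 was lower (10.0%, against 4.33%). The checkpoint list had a median log2 value of 6.86 in Sham, beside 4.06 over all rows. Cdkn1a, an inhibitor of the cell cycle that p53 induces, had the largest difference, with 7.11, 10.94 and 9.29, at 14.2-fold higher in C26-scr than in Sham and 3.12-fold lower in C26-FoxP1sh than in C26-scr. Sesn1, a p53 target that also restrains mTOR complex 1, read 6.29, 9.48 and 9.07 and was 9.08-fold higher, whereas Ccng1, another p53 target, read 11.03, 9.59 and 10.46 and was 2.71-fold lower.

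**Figure D4:**
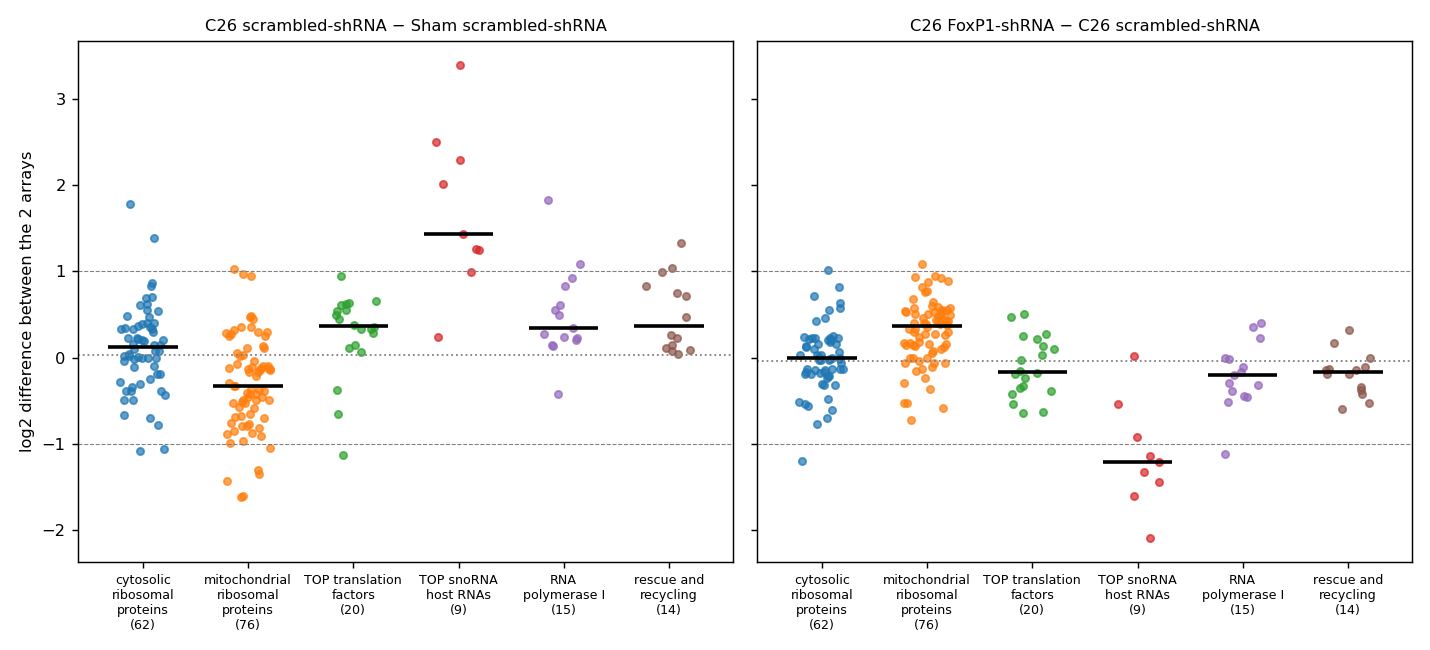
Log2 difference between arrays for each gene of 6 groups (number of genes in brackets), in C26-scr against Sham (left) and C26-FoxP1sh against C26-scr (right), with 1 point per gene and a bar at the median of the group. The dotted line is the median of all rows and the dashed lines are 2-fold, and the 62 cytosolic ribosomal proteins have medians of 0.12 and -0.01 while the 9 snoRNA host RNAs have 1.43 and -1.21.

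Markers of other cell types also differed between the arrays, and their part in the values above was not tested. The 11 neutrophil markers had a median log2 difference of 0.87 in C26-scr against Sham, with 5 higher by 2-fold (45.5%, against 3.34% of all rows), and their summed linear level was 106 in Sham, 405 in C26-scr and 292 in C26-FoxP1sh. All 9 measured T cell markers were lower in C26-scr than in Sham, with a summed level of 589, 192 and 129, and the 10 fibroblast markers summed to 4020.0, 2020.0 and 2410.0. The 4 measured erythroid markers summed to 143, 157 and 435, so that they were highest on the FoxP1-shRNA array. The 11 macrophage markers summed to 740.0, 933 and 532, yet their median difference in C26-scr against Sham was -0.22, with 6 of 11 below 0, and Cd68, which had the largest positive difference, read 6.83, 8.60 and 6.45, while Ccr2, the lowest, read 6.27, 3.75 and 4.23. The 10 markers of tumour and dividing cells summed to 411, 497 and 391, whereas 8 of 10 were below 0, with a median of -0.13, and Pcna, one of the exceptions, read 7.99, 8.58 and 8.11. The 7 B cell markers summed to 603, 112 and 72.8, a sum that is mostly that of Ighm in Sham, which read 9.05, 5.79 and 4.36. All 7 were below 0 in C26-scr against Sham, with a median of -0.44. Medians in the same comparison were 0.12 for 10 endothelial, 0.0006 for 7 adipocyte and -0.03 for 10 satellite cell markers. Acta1 read 12.32, 12.07 and 12.10, near the top of each array, and no marker was listed at 0.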

How the data were processed

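RNA of the tibialis anterior, pooled from 3 mice per group, was measured on 3 Mouse Gene ST 2.0 arrays. The deposited log2 values were made by the authors with RMA (affy 1.36.1, R 2.15.1, Brainarray Entrez mapping 17.0.0). These align the distributions of the arrays, so that a shift of all genes would be removed. The genome build of the probe mapping is not given in the sources used here. Of 25206 rows, 23185 had 1 symbol and 2021 had none and are unnamed here. Differences were computed without a filter with Python 3.11.15, numpy 2.4.6 and pandas 2.3.3, and figures drawn with matplotlib 3.10.9. With 1 array per group no SD, test or p-value was possible, and precision is limited by how few arrays there are. The computation was checked on simulated data.

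The members and the 21 gene lists were chosen with earlier results of these data known. Named were the 6 highest and 6 lowest members of each comparison, paralogs with their parents, common reference genes, Rpl5 and the stalk proteins, and up to 4 genes per list, largest difference first. The other snoRNA hosts, the snoRNAs, Larp1, Mdm2 and Acta1 were named after their values were seen. Alternatives were 5 other scalings (limma 3.58.1 under R 4.3.3 for loess), sizes of 1.5-fold and 3-fold, filters on dim rows, members without paralogs or pseudogenes or with the 4 unnamed rows, and the mean. Promoters are from RefSeq on GRCm38.p6. Protein sequences of the paralogs were not analysed here.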

Additional observations from a re-analysis of the deposited data

How the results depend on the processing

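Centring each array on its median and cyclic loess normalization turned the median of the members with FoxP1-shRNA against C26-scr from -0.01 to 0.0434 and 0.0166, and filters to rows with a mean of at least 9 (4 members) or 8 (8 members) turned it to 0.17 and 0.18, so that this median has no direction. Centring on 9 measured reference genes, which moved the median of all rows by 0.51 in C26-scr against Sham, by -0.09 with FoxP1-shRNA against C26-scr and by 0.42 in C26-FoxP1sh against Sham, gave 10 members higher and 0 lower in the first with a median of 0.63, 0 higher in the second, and a median of 0.55 in the last. Tfrc alone carried much of this shift, at -3.23 in C26-scr against Sham, and without it the values were 0 lower and a median of 0.29, 0 higher, and a median of 0.25. With all 9 reference genes, 3264 of the 25206 rows were higher and 443 lower by 2-fold in the first comparison, and 284 were higher in the second. Without Tfrc, 1285 rows were higher and 803 lower in the first, and 322 were higher in the second. The mitochondrial median in C26-FoxP1sh against Sham turned from -0.05 to 0.0183 with median centring, 0.37 with reference genes and 0.066 without Tfrc, and that in C26-scr against Sham turned to 0.17 with reference genes. At 1.5-fold the counts of members higher and lower were 8 and 5, then 4 and 4, then 4 and 2 in the 3 comparisons in that order, and at 3-fold they were 1 and 0, then 0 and 0, with 0 higher in the last. Among the 32 members at or above the median of all rows, 1 was higher in the first comparison and 0 were higher or lower in the second. At a mean of at least 9, 0 were higher or lower in the first and second and 0 higher in the last, with medians of 0.32 and 0.38 in the first and last, and at a mean of at least 8 the first had 0 higher and 1 lower, the second 0 and 0 and the last 0 higher, with medians of 0.26 and 0.35. Without paralogs 1 member was lower in the first. The snoRNA host RNAs kept at least 7 past 2-fold in C26-scr against Sham and at least 6 in the opposite direction with FoxP1-shRNA under the 5 other scalings. No paired analysis was possible because each group is 1 array and the labels give no replicate numbers. With 1 array per group no replicate could be left out.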

Other observations

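Rows outside the members that carry related sequence gave further values. The table held 18 rows of ribosomal protein pseudogenes with symbols ending in -ps, whose median log2 difference was 0.04 in C26-scr against Sham and 0.27 with FoxP1-shRNA against C26-scr, where 14 of 18 were above 0. Over all 107 snoRNA rows the medians were 0.14 and 0.12, with 75 and 78 rows above 0, and in C26-FoxP1sh against Sham the median was 0.23, with 89 of 107 above 0. Of the snoRNAs inside members, Snora62, in an intron of Rpsa, read 7.75 in Sham, 8.39 in C26-scr and 8.52 in C26-FoxP1sh, while Rpsa, which encodes a small-subunit protein also known as a laminin receptor, read 3.79, 3.80 and 3.48. Both were chosen after their values were seen.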
